A study of Mus musculus with 6 samples.

Results

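The 9 genes described here are markers by which mouse dendritic cells are recognised, taken by their Ensembl identifiers from a table of 22962 genes. Flt3 and Zbtb46 are shared by conventional dendritic cells, Xcr1, Clec9a, Batf3 and Itgae mark the type 1 subset, Irf4 and Cd209a the type 2 subset, and Ccr7 the migratory state. They were followed by RNA sequencing in cells labelled alveolar macrophages from C57BL/6 mice, 3 libraries after intratracheal saline (replicates 1, 2 and 3) and 3 after intratracheal bleomycin (replicates 1, 2 and 5), the standard mouse model of lung fibrosis. The labels give 2 weeks of treatment for both groups. The cells were washed out of the air spaces, left on a plate for 30 min and rinsed 5 times, so that the RNA is from whatever adhered, and the labels describe no sort on a dendritic or a macrophage marker. Age, sex and the number of animals behind a library are not stated in the labels, and p-values measure the spread between these libraries, part of which may be technical.

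Dendritic cells take up antigen in a tissue, carry it to a lymph node and show it to T cells. In the lung they lie in and under the airway lining beside the far more numerous alveolar macrophages. Their growth depends on FLT3, the receptor for FLT3 ligand, and the type 1 subset needs the transcription factors BATF3 and IRF8, while the type 2 subset uses IRF4. None of the genes is limited to dendritic cells in every setting: Itgae and Ccr7 are also carried by T cells, Irf4 by lymphocytes and some macrophages, and Cd209a by dendritic cells that arise from monocytes.

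The libraries held 27654799 to 37147983 reads assigned to genes, and values are read counts scaled to a common depth, so that 3 reads correspond to a value of 2.59 to 3.3. Defining alveolar macrophage markers were abundant in every library. Siglecf, a sialic acid receptor, ranged from 12651 to 16187 after saline and, lower, from 7228 to 8182 after bleomycin. Marco, a scavenger receptor, ranged from 9576 to 41642 and from 6826 to 11954. Fabp4, a fatty acid binding protein, ranged from 3444 to 5903 and from 5018 to 5535. Folds are bleomycin over saline on the log2(value + 1) scale with their standard error, from a limma fit to 13512 genes that reached 10 in 3 or more of the libraries. A gene was called at an adjusted p under 0.05.

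All 9 genes passed that filter, and 5 of them rose after bleomycin: Flt3, Itgae, Ccr7, Cd209a and Xcr1. Over all genes tested 9.76% were called higher. The count was 5 by edgeR (9.64% of all genes), 6 with Irf4 by DESeq2 (11.4%) and 4 without Cd209a when no intensity trend was fitted (8.22%). Zbtb46, Irf4, Clec9a and Batf3 did not pass, and 0 of the 9 fell by limma, by edgeR or by DESeq2, which called 3.9%, 3.83% and 5.69% of all genes lower. In 7 of the 9 the ranges of the groups were apart, against 30.8% of all genes. At an unadjusted p under 0.05, 7 were higher, against 15.6% of all genes, and 1, Batf3, was lower, against 10.3%. The median log2 change was 2.61 over the 9 genes and -0.01 over all genes tested. In whole-sample RNA, more cells of a type and more RNA per cell cannot be told apart.

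**Figure D1:**
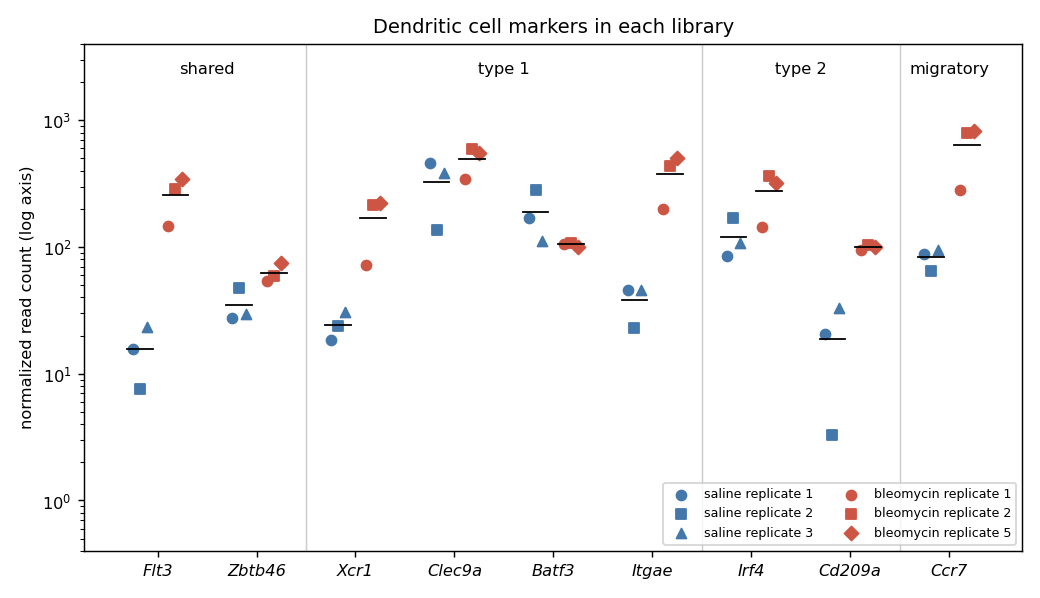
Normalized read count (log axis) of the 9 dendritic cell markers in each saline (blue) and bleomycin (red) library, ordered by subset, with a black line at each group mean. Flt3, Zbtb46, Itgae, Xcr1, Ccr7 and Cd209a have every red point above every blue one, though Zbtb46 was not called. Clec9a and Irf4 overlap, and in Batf3 the red points lie below the blue.

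The shared receptor Flt3 (ENSMUSG00000042817, chromosome 5, 147330741 to 147400489, GRCm38, minus strand) had the largest change of the 9. Its values were 15.7, 7.61 and 23.3 after saline (replicates 1, 2, 3) and 146, 286 and 342 after bleomycin (replicates 1, 2, 5), the order kept below. The groups lie far apart: the lowest bleomycin library is several times above the highest saline library. Flt3 went from 15.5 ± 7.86 to 258 ± 101 (SD, n = 3 each), a 16-fold rise (log2 4.0 ± 0.46, limma adjusted p = 0.000919), and ranked 249 of 13512 genes by the size of its rise. These values rest on 45 reads in all after saline and 819 after bleomycin. Its ligand gene Flt3l was low in both groups, with 24.5, 40.2 and 36.1 after saline and 33.2, 23.1 and 27.6 after bleomycin, and did not pass (log2 -0.24, adjusted p = 0.73).

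Zbtb46 (ENSMUSG00000027583, chromosome 2, 181387762 to 181459426), a zinc finger transcription factor that marks the conventional dendritic lineage, was low throughout. It had 27.5, 47.8 and 29.7 after saline and 53.9, 59.3 and 75 after bleomycin. Every bleomycin value is above every saline value, but saline replicate 2 comes close to bleomycin replicate 1. The difference of log2 0.85 ± 0.31 had a 95% interval of 0.14 to 1.57 and did not pass (limma adjusted p = 0.123, unadjusted p = 0.0246).

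Of the 4 type 1 markers Xcr1 and Itgae rose, while Clec9a and Batf3 did not pass; whether their changes differ from those of the other two was not tested. The RefSeq promoters of Flt3 and of the 3 type 1 markers in the table of promoters are printed to set beside these changes, since BATF3 and IRF8 act through paired AP-1 and IRF letters in DNA. Of the 9 genes, 7 had an entry there. Each line gives the 250 bases before the start that RefSeq annotates (GRCm38.p6), 5′ to 3′ on the gene's strand, with any match in capitals. For Batf3 the whole window lies inside the GENCODE gene and may not be a promoter.
Flt3 (chr5:147400490-147400739, minus strand): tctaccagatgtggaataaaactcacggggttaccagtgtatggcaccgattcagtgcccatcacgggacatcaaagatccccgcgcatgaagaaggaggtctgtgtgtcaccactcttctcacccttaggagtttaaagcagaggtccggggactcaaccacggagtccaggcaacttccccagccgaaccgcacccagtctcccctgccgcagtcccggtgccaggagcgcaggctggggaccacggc
Xcr1 (chr9:123862030-123862279, minus strand): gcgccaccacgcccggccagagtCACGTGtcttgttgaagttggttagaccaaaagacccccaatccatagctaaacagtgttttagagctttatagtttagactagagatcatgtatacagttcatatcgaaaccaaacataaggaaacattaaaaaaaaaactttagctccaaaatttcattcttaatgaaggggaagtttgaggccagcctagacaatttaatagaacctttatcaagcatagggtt
Clec9a (chr6:129408612-129408861, plus strand): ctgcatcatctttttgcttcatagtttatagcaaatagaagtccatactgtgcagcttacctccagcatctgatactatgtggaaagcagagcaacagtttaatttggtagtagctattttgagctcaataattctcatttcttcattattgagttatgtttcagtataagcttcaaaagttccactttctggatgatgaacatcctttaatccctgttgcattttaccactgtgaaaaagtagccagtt
Batf3 (chr1:191098164-191098413, plus strand): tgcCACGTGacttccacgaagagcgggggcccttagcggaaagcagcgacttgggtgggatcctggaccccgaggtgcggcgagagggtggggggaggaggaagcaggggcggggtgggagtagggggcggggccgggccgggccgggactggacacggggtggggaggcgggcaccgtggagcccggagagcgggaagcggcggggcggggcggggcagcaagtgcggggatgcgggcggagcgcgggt
Matches were sought on both strands to an AP-1 site (TGANTCA, found in 6.75% of 32851 promoter windows of this length), an IRF site (GAAA, any 2 bases, then GAAA; 2.98%), an ETS-IRF composite (GGAA, any 2 bases, then GAAA; 2.3%, which can overlap the IRF site), a kappa B site (GGGANTTCC, 1.43%) and an E-box (CACGTG, 6.02%). The capitals in Xcr1 and Batf3 are 1 E-box each, and the windows of Flt3 and Clec9a hold none of the 5 motifs. The paired AP-1 and IRF element itself and bases outside these windows were not searched, so whether BATF3 and IRF8 bind at these genes was not tested. Of the windows not printed, that of Zbtb46 (chr2:181424389-181424638) lies wholly inside the GENCODE gene and may not be a promoter. It holds 1 AP-1 match at -61 from its RefSeq start. Those of Irf4 and Cd209a hold none of the 5. Base composition differed widely: 76% of the Batf3 window is G or C, against 59.2% in Flt3, 38.8% in Xcr1 and 35.6% in Clec9a.

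Xcr1 (ENSMUSG00000060509, chromosome 9, 123852315 to 123862029) encodes the receptor for the chemokine XCL1 and among dendritic cells is confined to type 1. Its values were 18.6, 23.9 and 30.8 after saline and 72.8, 215 and 222 after bleomycin. Bleomycin replicates 2 and 5 were alike, and replicate 1 was the lowest of the 3 but still above every saline library. The gene rose 6.12-fold (log2 2.61 ± 0.45, limma adjusted p = 0.00583). Xcl1, the gene of its ligand, which T and natural killer cells make, had 0 reads in the saline libraries and 12 over the bleomycin group, too few to test.

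Itgae (ENSMUSG00000005947, chromosome 11, 73090583 to 73147446) encodes the integrin alpha E chain, CD103, which pairs with beta 7 and binds E-cadherin. Itgae had 46.1, 22.8 and 45.6 after saline and 199, 436 and 502 after bleomycin. Here too the groups do not overlap and bleomycin replicate 1 is the lowest of its group. Itgae rose 9.43-fold (log2 3.24 ± 0.41, adjusted p = 0.00137). Itgb7, its partner chain, was the 1 gene of 10 tested ligands and partners that rose, where 9.76% of all genes tested did. It went from 45.4 ± 13.6 to 294 ± 59.6, 6.48-fold (limma adjusted p = 0.000625). E-cadherin, Cdh1, which alveolar macrophages also make, had log2 0.04 (adjusted p = 0.899) with values between 1544 and 2185.

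Clec9a (ENSMUSG00000046080, chromosome 6, 129408862 to 129424763) encodes a lectin receptor that binds actin filaments laid bare on dead cells. Its values were 461, 137 and 382 after saline and 343, 589 and 556 after bleomycin, so that the groups overlap. Saline replicates 1 and 3 are higher than bleomycin replicate 1, and saline replicate 2 is the lowest of the 6. The difference was log2 0.74 ± 0.43, with a 95% interval of -0.24 to 1.72 (limma adjusted p = 0.338). Unlike Xcr1, Clec9a was plentiful in saline, and its exons share 184 bases, 5.59% of its exon length, with Clec1b, a neighbouring lectin gene on the same strand. Clec1b was far higher, at 2037, 1695 and 2608 after saline and 1194, 1108 and 890.4 after bleomycin, and fell 1.97-fold (adjusted p = 0.00853). Reads that start in one gene and are counted in the other were not tested, and Clec1b was singled out after its values were seen.

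Batf3 (ENSMUSG00000026630, chromosome 1, 191097847 to 191108945), the transcription factor without which type 1 cells fail to develop, went the other way from Xcr1 in value. It had 169, 284 and 111 after saline and 106, 108 and 101 after bleomycin. The bleomycin values lie close together and below all saline values, and saline replicate 3 nearly meets them. The change of log2 -0.73 ± 0.32 had a 95% interval of -1.46 to -0.0033 and did not pass (limma adjusted p = 0.191, unadjusted p = 0.0492). The other transcription factors with which BATF3 works, Irf8 of the type 1 list and the Jun genes, did not pass either: Irf8 had log2 -0.07 (adjusted p = 0.815) at values of 3741 to 4823, with Jun at -0.15, Junb at 0.83 and Jund at -0.41. Junb had a limma unadjusted p of 0.0319 (adjusted p = 0.145) and passed without saline replicate 2 (adjusted p = 0.0313).

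Of the type 2 markers Cd209a rose and Irf4 did not pass; the difference between their changes was not tested. Cd209a (ENSMUSG00000031494, chromosome 8, 3743397 to 3748984) encodes a relative of human DC-SIGN, a lectin that binds mannose-rich sugars. It had 20.6, 3.26 and 32.9 after saline and 94.3, 104 and 100 after bleomycin. The bleomycin libraries hardly differed, with the highest 1.11 times the lowest, whereas saline replicate 2 stood at 3 reads. Cd209a rose 6.88-fold (log2 2.78 ± 0.68, limma adjusted p = 0.0283). Without bleomycin replicate 1, 2 or 5 it did not pass (adjusted p = 0.0585, 0.106 and 0.104), nor with no intensity trend (0.0707), within 8.51e-05 to 0.106 over the 17 settings run. Without saline replicate 2 the log2 change was 1.89 (adjusted p = 0.00795).

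Of the neighbouring lectin genes of this family, Cd209b moved in the opposite direction. Cd209b, known from macrophages of the spleen's marginal zone, had 55.9, 22.8 and 98.6 after saline and 12.6, 8.79 and 12.9 after bleomycin and fell 4.18-fold (adjusted p = 0.034). Cd209d, at 0 after saline and 8.98, 4.39 and 2.59 after bleomycin, and Cd209c and Cd209e were too low to test. These relatives were looked at after their values were seen, and reads of similar members may be split between them.

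Irf4 (ENSMUSG00000021356, chromosome 13, 30749226 to 30766976), the transcription factor of the type 2 subset, overlapped between groups. Irf4 had 85.3, 169 and 107 after saline and 143, 365 and 321 after bleomycin. Saline replicate 2 exceeded bleomycin replicate 1, while the other bleomycin libraries were above all saline ones. The difference of log2 1.14 ± 0.39 (95% interval 0.25 to 2.02) did not pass (limma adjusted p = 0.097). It passed by DESeq2 (adjusted p = 0.0135) and without bleomycin replicate 1 (log2 1.56, adjusted p = 0.0129), within 0.0129 to 0.33 over the settings run.

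Ccr7 (ENSMUSG00000037944, chromosome 11, 99144196 to 99155077) encodes the chemokine receptor that takes mature dendritic cells, and some T and B cells, to lymph nodes along CCL19 and CCL21. Its values were 88.3, 65.2 and 95.4 after saline and 279, 794 and 830.1 after bleomycin. No bleomycin library was near the saline range, and replicate 1 was again the lowest of its group. Ccr7 rose 6.88-fold (log2 2.78 ± 0.40, limma adjusted p = 0.00259), from 83 ± 15.8 to 635 ± 308.

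**Figure D2:**
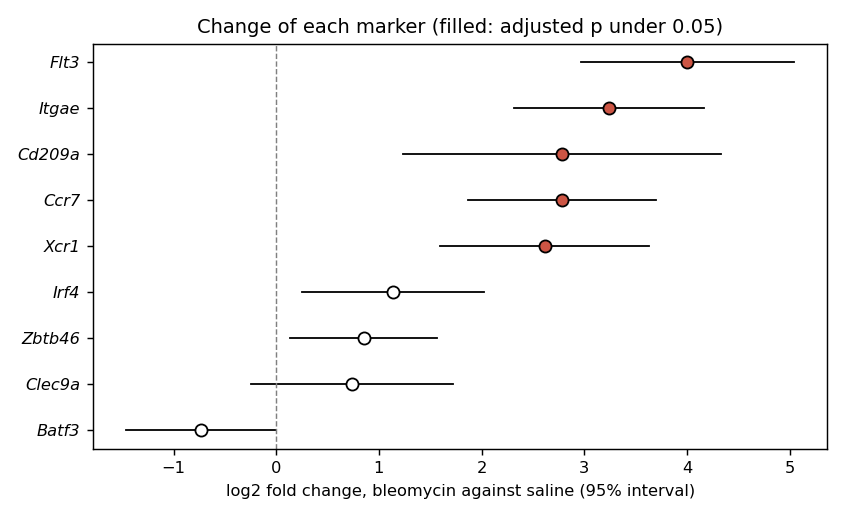
Log2 fold change of each marker, bleomycin against saline on the log2(value + 1) scale, with its 95% interval from limma; filled points passed at an adjusted p under 0.05. Flt3 lies highest at 4.0, the 5 filled points are all above 2.6, and Batf3 is the 1 gene below 0.

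Set side by side per kilobase of exon, the order of the genes differed between the groups. In saline the highest mean level was that of Batf3, 118 ± 54.9 normalized reads per kilobase, then Clec9a, 99.2 ± 51.3, and Ccr7, 41.9 ± 7.99, and the lowest was Flt3, 2.52 ± 1.27. Every neighbouring pair in that order overlapped over the libraries. In bleomycin Ccr7 came first with 321 ± 156, then Clec9a with 151 ± 40.5, Itgae with 82.7 ± 34.8, Batf3 with 65.6 ± 2.23, Cd209a with 62.9 ± 3.19, Irf4 with 56.3 ± 24, Flt3 with 41.7 ± 16.4 and Xcr1 with 38.2 ± 19. Zbtb46, last at 7.37 ± 1.29, was the 1 gene whose range did not overlap that of its neighbour. Some genes further apart in the order were separate: every Ccr7 value (141 to 420) lay above every Itgae value (43.3 to 109.5), and every Clec9a value (104 to 179) above every Batf3 value (63.1 to 67.4).

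Among the bleomycin libraries, replicate 1 had the lowest value in 8 of the 9 genes, all but Batf3, and it was lowest in 46.7% of all genes tested. The highest bleomycin library exceeded the lowest 3.06-fold in Xcr1, 2.97-fold in Ccr7, 2.55-fold in Irf4, 2.53-fold in Itgae and 2.35-fold in Flt3. The spread was smaller in Clec9a (1.72-fold), Zbtb46 (1.39-fold), Cd209a (1.11-fold) and Batf3 (1.07-fold). In the saline group, replicate 2 was lowest in 5 genes (Flt3, Itgae, Clec9a, Ccr7 and Cd209a) and highest in the 3 transcription factors Zbtb46, Batf3 and Irf4; it was lowest in 32.7% of all genes tested. All 5 calls but that of Cd209a were kept without any 1 library.

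**Figure D3:**
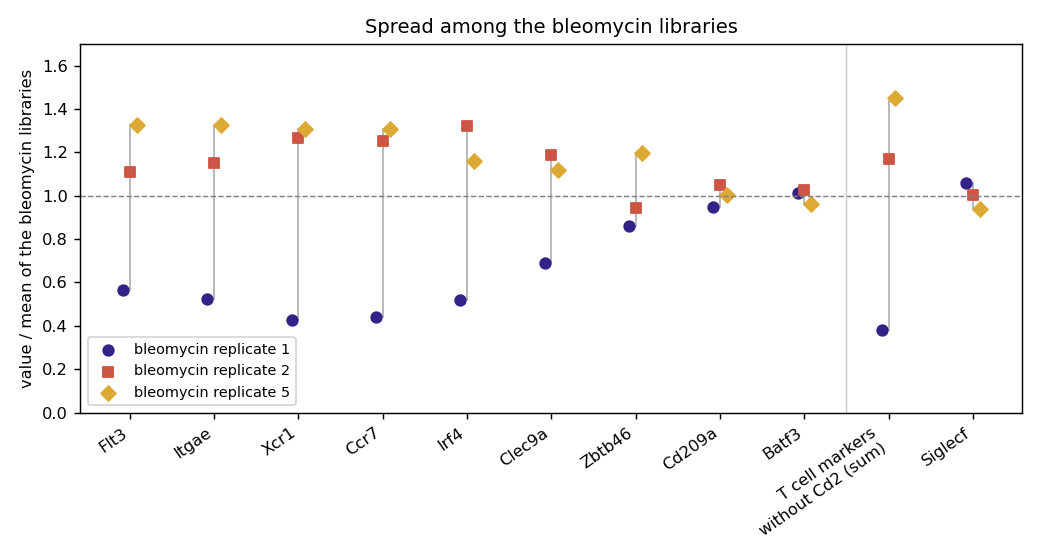
Value of each gene in bleomycin replicates 1, 2 and 5 divided by the mean of the 3, with the summed T cell markers other than Cd2 and Siglecf beside them; grey lines span the range. Replicate 1 lies lowest in 8 of the 9 markers and in the T cell sum, while Cd209a and Batf3 stay near 1.

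Markers of other cells that carry some of these genes moved as well. Beside the counts below, 9.76% of all genes tested were called higher by limma and 3.9% lower. Of 19 T cell markers 17 were tested, 16 rose and 1, Cd2, fell; 14 of the 16 were under 10 in every saline library and so entered the test through the bleomycin group alone. Cd2 alone had values of 7042 to 15559; the 18 others, separated from it after the values were seen, summed to 48.8 to 57.9 in saline libraries and to 411, 1259 and 1564 after bleomycin, with Cd8b1 and Bcl11b at 0 in every saline library. The 6 B cell markers other than Cd22 summed to 22.8 to 31.8 after saline and 88, 567 and 421 after bleomycin, with Pax5 at 0 in every saline library. The natural killer sum rested on Klrk1, which T cells carry too, at 8.83, 4.35 and 6.36 after saline and 40.4, 89 and 103 after bleomycin. The 5 others in the table summed to 4.9, 6.52 and 10.6 and to 11.7, 39.6 and 23.3, with Gzma and Eomes at 0 in every saline library, and were too low to test. Of 10 monocyte markers tested 7 rose and 1, Treml4, fell 4.14-fold. The rises ran from 2.46-fold in Fn1 to 71.7-fold in F13a1, which had 26 reads after saline and 2209 after bleomycin. Ly6c2 rose 43.6-fold from 14 saline reads and Cx3cr1 30.5-fold from 33. The sum of all 11 went from between 35217 and 60577 to between 67249 and 151208, but most of it was Fn1, fibronectin, which macrophages also make. Without Fn1 the sums were 3252, 6697 and 3951 after saline and 5132, 8114 and 9295 after bleomycin, and the groups overlapped. These sums still hold the falling Treml4, at 1423, 4315 and 2662 after saline and 592, 730 and 531 after bleomycin. Sums without Treml4 were not made. Klrk1 and Fn1 were set apart after their values were seen. Of 5 neutrophil markers tested 3 rose (S100a8 3.67-fold, Cxcr2 3.85-fold and Mmp8 2.44-fold). By limma, edgeR, DESeq2 or at an unadjusted p under 0.05, 0 fell. S100a9 had 4.9, 503 and 7.42 after saline and 20.7, 56 and 37.1 after bleomycin and did not pass. Ltf did not pass either (log2 -0.34). Retnlg, with 11 reads after saline and 3 after bleomycin, and Camp, with 0 and 2, were too low to test. The 7 in the table summed to 1536 to 2185 and to 4570 to 5274, and most of this was Mmp8, Cxcr2 and S100a8. Mmp8 already had 1088, 998 and 1536 after saline. Of 6 epithelial markers Krt8, Krt18 and Sftpc rose 19.99-fold, 16.6-fold and 7.65-fold and Epcam fell 3.16-fold, with sums of 5787 to 6927 and of 4253 to 4770. Most of these sums was Epcam (mean 4378 after saline and 1426 after bleomycin) and Cdh1 (1894 and 1939). Krt8 went from a mean of 14.3 to 264, Krt18 from 17.4 to 316 and Sftpc from 41.5 to 342. Of 13 resident alveolar macrophage markers 9 fell and 0 rose by limma, edgeR or DESeq2 (at an unadjusted p under 0.05, 10 and 0), and their sum went from 611856 to 760412 down to 327265 to 457084. Siglecf was among the 9 and fell 1.88-fold (limma adjusted p = 0.00194). Marco (log2 -1.12, limma adjusted p = 0.165) and Fabp4 (log2 0.20, limma adjusted p = 0.583) did not pass. The part of these cells in the values of the 9 markers was not tested.

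Further genes of conventional dendritic cells rose beside Flt3. Of 17 listed 15 were tested, 9 rose and 0 fell by limma, edgeR or DESeq2 (at an unadjusted p under 0.05, 11 and 1), with a median log2 change of 2.95. For this list and those below, the shares of all genes tested were 9.76% higher and 3.9% lower by limma. They were 9.64% and 3.83% by edgeR, 11.4% and 5.69% by DESeq2, and 15.6% and 10.3% at an unadjusted p under 0.05. Kmo and Htr7 were under 10 in every saline library, so that they could enter the test only by being higher after bleomycin. Among the 13 others 7 rose and the median was 2.92. Of these 13, Adam19, Dpp4, Jaml and Hmgn3 reached 10 in only 1 saline library and also needed bleomycin libraries to enter. Kmo, kynurenine 3-monooxygenase, went from 7.64 ± 1.66 to 97.2 ± 33.7 (10.96-fold, limma adjusted p = 0.00083). Adam19, a membrane metalloprotease, rose 19.9-fold from 27 saline reads and Runx3, a transcription factor that T cells use too, 14.7-fold. Itgax, which encodes CD11c and is also a gene of alveolar macrophages, did not pass (log2 0.07, adjusted p = 0.822), with values of 44236 to 59925. Without bleomycin replicate 2 or 5 only 4 genes of the list rose; Kmo was then below the filter, as it was without bleomycin replicate 1.

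Of the other type 1 genes 15 were tested: 5 rose by limma and by edgeR and 6 by DESeq2, and 0 fell by any of the tools (at an unadjusted p under 0.05, 6 rose and 1 fell), with a median log2 change of 0.34. Clnk and Gcsam likewise entered through the bleomycin group alone, and among the 13 others 3 rose and the median was 0.27. Cadm1, an adhesion molecule of type 1 cells, had 23.5, 6.52 and 39.2 after saline and 133, 238 and 262 after bleomycin and rose 10.4-fold (adjusted p = 0.00589). Clnk, an adaptor protein, was counted in 2 reads after saline and 50 after bleomycin, 22.6 times the depth-scaled level (95% interval from counting 5.95 to 192), and Gcsam, a signalling adaptor best known from germinal centres, rose 16.6-fold from 5 saline reads. By contrast Wdfy4, which type 1 cells need for cross-presentation, stood at 5428 to 9488 and had log2 -0.26 (adjusted p = 0.404), and Naaa and Ly75, abundant in every library, did not pass either. The count was 3 with no intensity trend, with a minimum value of 50 or without bleomycin replicate 1, and 1 without bleomycin replicate 2 or 5, where Clnk and Gcsam could not be tested. The call of Tlr3 (limma adjusted p = 0.0375) was lost without bleomycin replicate 2 or 5 and without any 1 saline library.

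Of 10 other type 2 genes tested 4 rose and 0 fell by limma (median log2 change 0.23; at an unadjusted p under 0.05, 4 and 1, by edgeR 4 and 0, by DESeq2 4 and 1). Itgam, which encodes CD11b and is shared with monocytes and neutrophils, overlaps Gm49368 on its strand. It had 64.7, 159 and 53 after saline and 999.8, 1228 and 1588 after bleomycin and rose 15.1-fold (adjusted p = 0.000437). The galactose lectins Mgl2 and Clec10a, found on type 2 cells and on some macrophages, rose 9.19-fold and 5.1-fold. Rbpj rose 1.39-fold (limma adjusted p = 0.0415). Its call was lost without bleomycin replicate 2 or 5 and without any 1 saline library. Leaving out 1 library, 3 to 4 genes of this list rose. Sirpa, Notch2, Klf4 and Zeb2 did not pass, though every bleomycin value of Sirpa was below every saline value (log2 -0.15). Clec4b1 had 462, 441 and 634 after saline and 393, 316 and 264 after bleomycin, without overlap. It did not pass (log2 -0.66, limma adjusted p = 0.0738, unadjusted p = 0.0119). Without bleomycin replicate 1 Clec4b1 was called lower (limma adjusted p = 0.038).

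Genes of the mature or migratory state rose beside Ccr7. Of 25 tested 13 rose and 0 fell by limma or edgeR (at an unadjusted p under 0.05, 15 and 1, by DESeq2 14 and 1), with a median log2 change of 1.16. Without Nudt17 and Stat4, which entered through the bleomycin group alone, 11 of 23 rose and the median was 0.71. Anxa3, an annexin, had 1449, 1595 and 1918 after saline and 5018, 5032 and 5172 after bleomycin, and rose 3.09-fold (adjusted p = 0.00017). Traf1, an adaptor of the TNF receptors, rose 7.42-fold (adjusted p = 0.00118) and Zmynd15, which shares exons with Cxcl16 on the other strand, 8.73-fold (adjusted p = 0.00164). The immune checkpoint ligand Cd274 did not pass, at log2 0.25, nor did Relb, a transcription factor of mature dendritic cells, at log2 0.24. Pdcd1lg2, also a checkpoint ligand, had 234, 217 and 221 after saline and 116, 149 and 159 after bleomycin. These groups do not overlap, and Pdcd1lg2 lay just short of a call as lower (log2 -0.67, limma adjusted p = 0.0502, unadjusted p = 0.0069). It was the 1 gene of this list lower at an unadjusted p under 0.05. Without bleomycin replicate 2 or 5 the count was 8. The call of Ccl22 (limma adjusted p = 0.0467) was lost without any 1 bleomycin library and without saline replicate 1 or 2.

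Plasmacytoid dendritic cells, which make type I interferon, also have markers in the table. Of 9 tested 4 rose and 1 fell, with a median log2 change of 0.95, also with Siglech at its bound. Siglech entered through the bleomycin group alone; among the 8 others 3 rose and the median was 0.81. Siglech, a sialic acid receptor of these cells, had 0 reads in every saline library and 15.3, 20.9 and 24.1 in bleomycin libraries, at least 19.3-fold higher when the saline group is set to 3 reads in all. Tcf4, their lineage transcription factor, rose 2.79-fold (adjusted p = 0.000625) and Irf7, also an interferon-induced gene, which shares exon bases with Phrf1 on the other strand, 3.67-fold (adjusted p = 0.00738). Runx2 fell 1.34-fold (adjusted p = 0.0392) and was lost without any 1 of the 6 libraries (0.0743 to 0.197). Without bleomycin replicate 2 or 5 2 genes rose, and Siglech left the test when any bleomycin library was dropped.

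**Figure D4:**
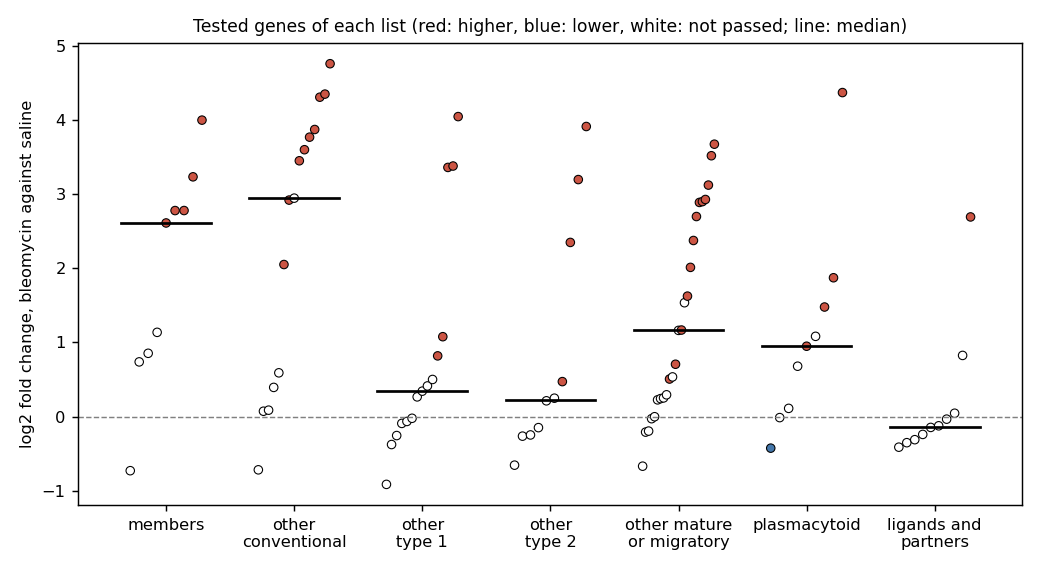
Log2 fold change of each tested gene in the 9 markers and in 6 lists of related genes, ordered by size within a list; red points rose, blue fell, white did not pass, and the line is the median. The medians run from 2.95 in the other conventional genes to -0.14 in ligands and partners, where Itgb7 is the 1 red point.

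The genes most like each marker over the 6 libraries were found by the mean absolute difference of log2 profiles centred on their own mean, among the 13512 genes tested. Nearest to Flt3 were Dlg3 (0.13), St3gal5 (0.19) and Gpr183 (0.21), an oxysterol receptor that guides dendritic cells and B cells. Near to Itgae were Nfatc2 (0.06), a transcription factor of activated T cells, and Klrk1 (0.12), which encodes the killer cell receptor NKG2D. Xcr1 was nearest to Sgsh (0.16), Sestd1 and Tnfrsf9, and Ccr7 to Src (0.16), Serpinb6b (0.17) and Sgsh (0.20). Among the markers themselves the closest pairs were Xcr1 with Ccr7 (0.21) and Itgae with Ccr7 (0.23). Clec9a was nearest to Hid1 (0.09), Megf11 and 4833418N02Rik, Batf3 to Zfp7 (0.09), Arhgef40 and Zfp93, Zbtb46 to Cxcl9 (0.06), Pex26 and H2-Q4, Irf4 to Ifi203 (0.11), Perm1 and Nxpe1-ps, and Cd209a to Serpinh1 (0.20), Cst6 and Ptprk. These likenesses rest on 6 libraries in 2 groups that share their depth scaling.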

How the data were processed

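The 6 libraries were grouped by the treatment in their titles. Per the submitters' processing notes, the authors' tools were STAR 2.5.2b, HTSeq 0.6.0, bcl2fastq 2.18.0.12 and DESeq2, with build mm10; annotation, strand setting and filters: not given in the sources used here. What the authors deposited is a table with a normalized signal for 22962 genes, of which 22873 matched a symbol. Each value divided by what 1 read is worth came out whole (100%, within 0.05 of a read), so reads could be recovered. Positions and exon lengths are from GENCODE on GRCm38, promoters from RefSeq on GRCm38.p6.

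The filter kept genes that reached 10 in 3 or more libraries, which were tested with limma 3.58.1 (R 4.3.3) on log2(value + 1), two-sided, with an intensity trend and Benjamini-Hochberg adjustment over all 13512 genes; this scale understates changes of low genes. Also run were a minimum of 50 or no filter, pseudocounts of 0.5 and 5, TMM and quantile scaling, robust variances, no trend, edgeR 4.0.16 (called 1821 genes) and DESeq2 1.42.0 (2313) on the recovered reads, a replicate block, and leaving out each library. Bounds and counting intervals (95%, exact binomial) cover counting error only. Genes under 10 in 1 or 2 saline libraries, Flt3 and Cd209a among them, also needed bleomycin libraries to pass the filter. Counts made without the genes that entered through the bleomycin group alone still hold such genes. The members and lists were chosen with earlier results of these data known. Named genes were the 9 markers, the 3 called genes of each list with the smallest p, direct ligands and partners, the 3 nearest profiles and 3 macrophage markers; others that did not pass are named as examples chosen after their values were seen. Of the genes this rule names or the marker lists hold, 2 are not reported here.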

Additional observations from a re-analysis of the deposited data

How the results depend on the processing

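Of 153 values of the 9 markers under 17 settings, 147 kept their direction and side of the threshold, 4 were lost (Cd209a) and 2 gained (Irf4), and 0 reversed. The count of markers that rose stayed at 4 to 6, with 4 to 5 when 1 library was left out. Without 1 library, the filter leaves fewer low genes to test and fewer samples in the fit. Over these 6 fits 502 to 1173 genes rose and 162 to 576 fell. In the lists, 4 to 9 conventional genes rose and 0 to 1 fell, and 1 to 5 type 1 genes rose. Of the type 2 genes 3 to 4 rose and 0 to 1 fell, and 8 to 14 mature genes rose. In the same fits 2 to 5 plasmacytoid genes rose and 0 fell, and 1 to 2 ligands and partners rose. With a minimum of 50 or no intensity trend 3 type 1 genes rose. Fallen type 2 genes numbered 1 by DESeq2, and fallen mature genes 1 at a pseudocount of 0.5, with TMM or quantile scaling, with no trend or by DESeq2. With no filter or no trend 0 plasmacytoid genes fell, and with no filter 2 ligands and partners rose; the cause was not tested. Quantile scaling called 1114 genes higher and 752 lower, against 1319 and 527. Genes under a value of about 10 rest on few reads.

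The replicate numbers 1 and 2 occur in both groups, but nothing in the labels ties them to a shared mouse or day, and same-numbered libraries did not deviate together (correlation of deviations -0.20 for number 1 and 0.02 for number 2). With the replicate number as a block, which rests on those 2 numbers alone, 953 genes rose and 194 fell, 5 of the 9 markers rose and 0 fell, and 0 plasmacytoid genes fell.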
